A study of Homo sapiens with 9 samples.

Results

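The E2F genes E2F1 to E2F8 and the genes of their dimerization partners, TFDP1 and TFDP2, were examined for open chromatin in MDA-MB-231 cells, a triple-negative breast cancer cell line. These 10 genes were taken by name from the 20033 protein-coding genes with a canonical transcription start site (TSS) in GENCODE. Their peaks were collected within 1 kb of the TSS, in the gene body and within 50 kb of it. By function they were grouped as activators (E2F1, E2F2 and E2F3), repressors (E2F4, E2F5 and E2F6), atypical members (E2F7 and E2F8) and dimerization partners (TFDP1 and TFDP2).

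E2F proteins are the transcription factors that switch on the genes of DNA replication as a cell leaves G1. E2F1 to E2F6 bind DNA as heterodimers with a DP protein, whereas E2F7 and E2F8 carry a second DNA-binding domain and bind without one. Pocket proteins of the retinoblastoma family hold the activators inactive until cyclin-dependent kinases phosphorylate the pocket proteins, and several E2F genes are themselves E2F targets. EZH2, the methyltransferase of the Polycomb repressive complex PRC2, was the partner of E2F1 under study.

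ATAC-seq, which inserts sequencing adapters into accessible DNA with Tn5 transposase, gave 1 peak list for each of 9 libraries. A control hairpin (shCtrl), a hairpin against EZH2 (shEZH2) and a hairpin against E2F1 (shE2F1) had 2 libraries each. A hairpin against SUZ12 (shSUZ12), a second PRC2 subunit, had 1 library, as did the solvent DMSO and GSK126, which inhibits the methyltransferase activity of EZH2. The hairpins were delivered by lentivirus for 24 h, followed by puromycin at 2 μg/ml for 72 h, and the study's methods give the same 72 h for exposure to GSK126. The dose of GSK126 in this assay is not printed here. Nothing in the labels says that the replicates came from separate cultures, so their spread may be technical. Peak lists hold no RNA level, so the depth of the knockdowns of EZH2, E2F1 and SUZ12 was not checked here.

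The lists held 58626 to 85812 peaks, with a median tag pile-up at the summit of 27 to 39 tags. The most frequent local background, which scales with depth, ran from 1.41 tags in the second shEZH2 library to 2.18 tags in the second shE2F1 library. All 7 markers of mesenchymal MDA-MB-231 cells had a promoter peak in every library, and 4 of 4 blood cell markers had none. Of 7 luminal markers, 2 had a promoter peak in every library. GATA3 had one in no library, and ESR1, PGR and FOXA1 had one in some libraries.

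The start regions of the activator genes are shown first, because consensus sites of the family lie there, next to the accessibility peaks that were measured. The 250 bases before the TSS are given 5′ to 3′ on the strand of each gene, with E2F words in capitals. They were taken from RefSeq (GRCh38.p14), and no annotated GENCODE exon overlaps them. The E2F1 bases are chr20:33686386-33686635 on the minus strand, the E2F2 bases chr1:23531234-23531483 on the minus strand and the E2F3 bases chr6:20401629-20401878 on the plus strand.
E2F1: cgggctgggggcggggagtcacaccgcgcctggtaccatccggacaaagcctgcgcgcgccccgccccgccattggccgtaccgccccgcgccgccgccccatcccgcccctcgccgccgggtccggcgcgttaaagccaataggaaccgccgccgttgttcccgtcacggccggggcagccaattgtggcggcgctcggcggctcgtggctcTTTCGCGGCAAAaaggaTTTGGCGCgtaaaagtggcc
E2F2: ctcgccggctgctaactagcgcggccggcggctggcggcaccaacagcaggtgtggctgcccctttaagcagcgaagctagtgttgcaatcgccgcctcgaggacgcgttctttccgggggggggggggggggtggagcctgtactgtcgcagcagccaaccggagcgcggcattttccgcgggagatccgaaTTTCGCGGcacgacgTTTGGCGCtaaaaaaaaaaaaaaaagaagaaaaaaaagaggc
E2F3: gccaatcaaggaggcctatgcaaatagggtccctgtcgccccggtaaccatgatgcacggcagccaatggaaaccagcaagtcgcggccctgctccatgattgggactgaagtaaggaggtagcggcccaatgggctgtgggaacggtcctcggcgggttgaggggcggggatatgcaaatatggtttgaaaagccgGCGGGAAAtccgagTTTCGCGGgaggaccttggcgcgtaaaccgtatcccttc

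For the dimerization partners, 30 bases around the E2F word are given. The TFDP1 window is chr13:113584622-113584651 on the plus strand, upstream of the TSS. The TFDP2 window is chr3:142149508-142149537 on the minus strand, in the 5′ end of exon 1.
TFDP1: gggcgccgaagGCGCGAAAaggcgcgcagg
TFDP2: gtgctgctccgCCGCCAAAgctcgcgcggg

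The words searched were TTTCCCGC, TTTGGCGC, TTTCGCGC and TTTGCCGC for the motif TTTSSCGC, and TTTCGCGC, TTTCGCGG, TTTGGCGC and TTTGGCGG for TTTSGCGS, on both strands, so that TTTCGCGC and TTTGGCGC belong to both motifs. RefSeq held 11 promoters of 300 bases for 8 members (E2F1, E2F2, E2F3, E2F4, E2F6, E2F7, TFDP1 and TFDP2), which ran from 250 bases before the start to 50 after it. At least 1 E2F word was found in 5 of these 11 promoters, whereas 4.30% of all 35116 promoters of that length held one. These 5 were promoters of E2F1, E2F2, E2F3, TFDP1 and TFDP2, and E2F3 and TFDP2 also had promoters without a word. E2F1 held 3 words, which lay from 37 to 13 bp before its TSS, and the first 2 of them overlap on opposite strands. E2F2 held 2 words between 57 and 35 bp before the TSS, and E2F3 held 2 words between 53 and 32 bp before it. The TFDP1 word lay at −120 to −113 bp and the TFDP2 word at +18 to +25 bp. No E2F word occurred in these windows of E2F4, E2F6 and E2F7, which says only that these letters were absent there. A match is a description of sequence and not a measured binding site.

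Peaks at the promoters were near universal among these genes. All members except E2F2 had a peak within 1 kb of the TSS in all 9 libraries, 9 of 10 genes, against 12026 of 20033 protein-coding genes (60.0%). E2F2 had one in 8 libraries and lacked it in the first shE2F1 library. Each peak was described by the fold enrichment of its summit over the local background and by its percentile in the list of its own library, on which 100 is the strongest peak of the list. A second percentile ranked the tag pile-up at the summit, a whole number recovered from the fold enrichment and the −log10 p of the peak.

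**Figure D1:**
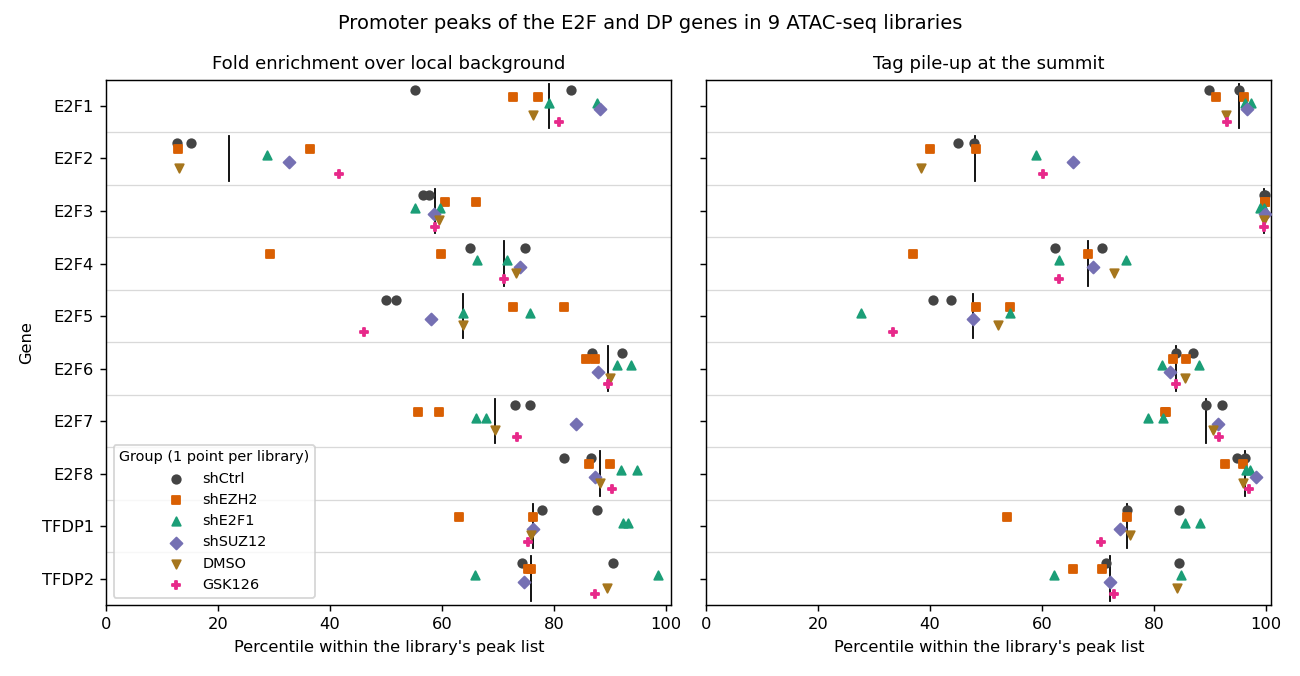
Percentile of the strongest promoter peak of each gene within the peak list of its library, by fold enrichment over local background (left) and by tag pile-up at the summit (right). Each point is 1 library, colored by group, and the black line is the median over libraries. E2F2 lies lowest by fold enrichment, with a median of 21.9, and E2F3 moves from a median of 58.7 on the left to 99.8 on the right.

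By fold enrichment, the promoters of E2F6 and E2F8 ranked highest, with median percentiles over the libraries of 89.6 and 88.3. E2F1 (79.2), TFDP1 (76.3), TFDP2 (75.9), E2F4 (71.1), E2F7 (69.5), E2F5 (63.7) and E2F3 (58.7) followed, and E2F2 was lowest at 21.9. The ranges over the libraries of neighbours in this order overlapped at every step except the last, from E2F3 to E2F2. Over the 12026 promoters with a peak in every library, the quartiles of this median were 58.8 and 90.6. E2F1, E2F4, E2F5, E2F6, E2F7, E2F8, TFDP1 and TFDP2 lay between these quartiles, E2F3 just below the lower one and E2F2, with a peak in 8 libraries, far below it.

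By summit tags the order was different. E2F3 came first with a median percentile of 99.8 and a range of 99.0 to 99.9, which did not overlap that of E2F8, the next gene, at 92.8 to 98.3. E2F1 (95.2), E2F7 (89.4), E2F6 (83.9), TFDP1 (75.2), TFDP2 (72.2) and E2F4 (68.2) came after, and E2F2 (48.0) and E2F5 (47.6) were lowest with overlapping ranges. Among all 12026 promoters, E2F3 stood at percentile 98.8 by its median rank in tags and at percentile 24.8 by its median rank in fold enrichment. Its summit held 114 to 347 tags, and its local background was 10.5 to 22.7 times the most frequent background of the library. For the other 9 genes the local background was 1.09 to 8.54 times that value.

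By fold enrichment the spans of the 4 functional classes all overlapped. Median percentiles of fold enrichment spanned 21.9 to 79.2 in the 3 activators, 63.7 to 89.6 in the 3 repressors, 69.5 to 88.3 in the 2 atypical genes and 75.9 to 76.3 in the 2 dimerization partners. By summit tags the spans were 48.0 to 99.8 for activators, 47.6 to 83.9 for repressors, 89.4 to 96.2 for atypical genes and 72.2 to 75.2 for dimerization partners. By tags the span of the atypical genes lay above those of the repressors and the dimerization partners, and inside that of the activators. With 2 or 3 genes in a class no test was made.

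**Figure D2:**
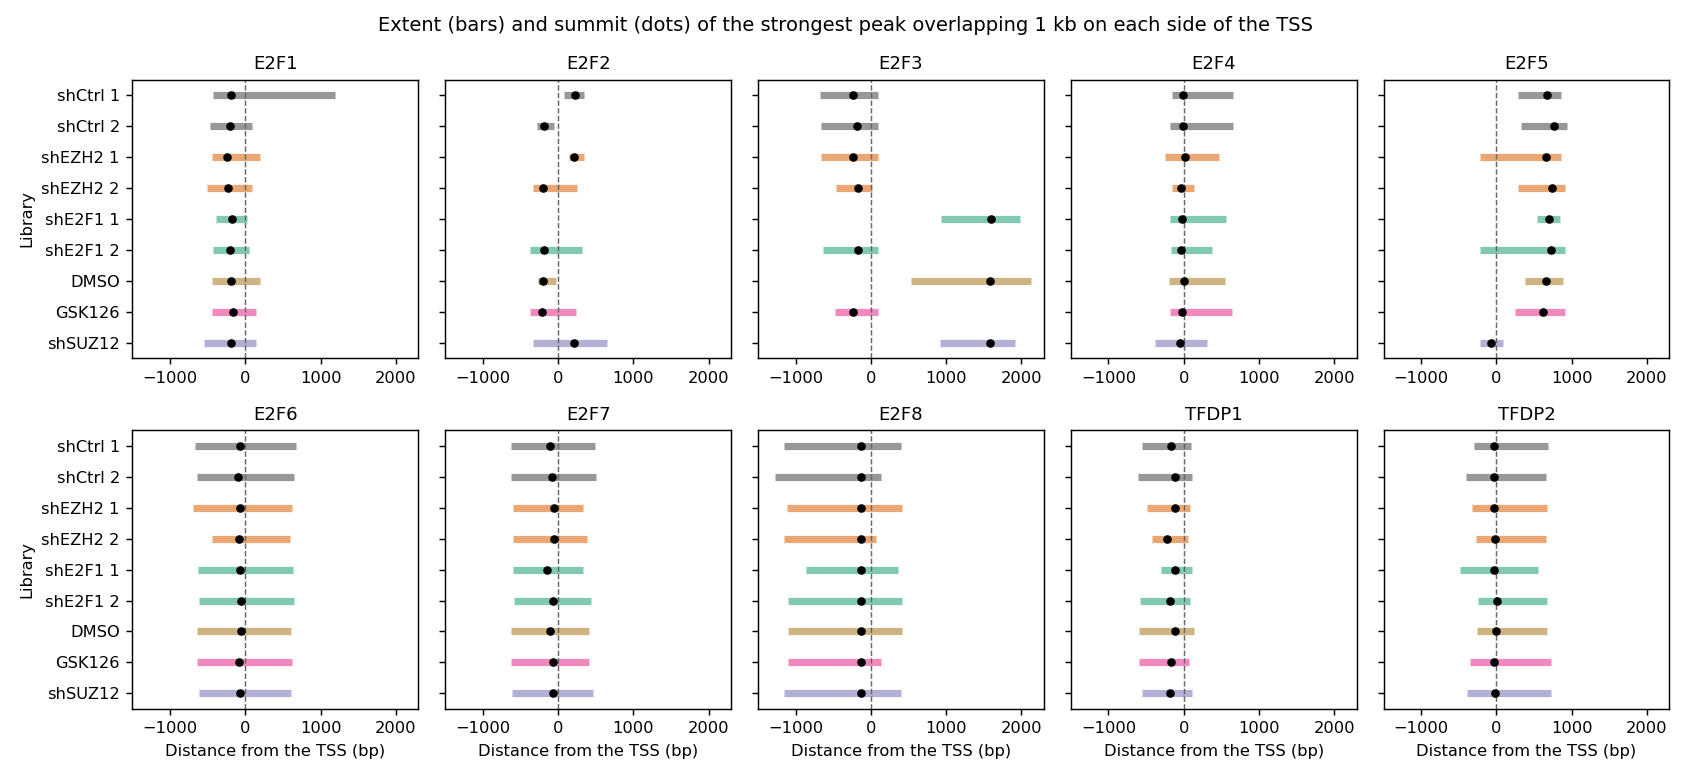
Strongest peak overlapping the window of 1 kb before to 1 kb after the TSS, by gene and library, drawn from its first to its last base (bars, colored by group) with its summit (black dot), in bp from the TSS along the direction of transcription. E2F8 keeps its summit at 136 or 135 bp before the TSS in all 9 libraries, whereas the E2F3 dots fall at 2 sites, near the TSS and near 1589 bp after it.

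Over the libraries the summit kept within a span of 1 bp at E2F8, 35 bp at E2F6 and 94 bp at E2F7. At E2F3, E2F5 and E2F2 that span was 1829, 846 and 428 bp. At E2F8, an atypical repressor of E2F targets in S and G2 phases, the summit lay 136 bp before the TSS in 8 libraries and 135 bp before it in the second shCtrl library. Its peak had the largest median width of the family, 1517 bp with a range of 1218 to 1561 bp, at percentile 94.3 of all promoters by median width. The gene has further annotated starts at −675 and −653 bp from the canonical one (chr11:19224063-19241620, minus strand). At E2F6, which represses through Polycomb proteins rather than pocket proteins, the peak was 1034 to 1343 bp wide and its summit lay between −91 and −56 bp. At E2F7, the other atypical gene, the width was 930 to 1140 bp and the summit lay between −150 and −56 bp.

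Summits lay close to the TSS at E2F4 and TFDP2 and farther upstream at TFDP1 and E2F1. The E2F4 summit lay within 42 bp of the TSS in all 9 libraries, from −42 to +12 bp. TFDP2, the partner gene on chromosome 3, had its summit between −33 and +4 bp, and TFDP1 had it between −223 and −113 bp, in a peak of 419 to 719 bp. The TFDP1 word printed above lay inside the peak of all 9 libraries, 0.5 bp from the nearest summit and 107 bp from the farthest. At E2F1 the summit lay between −238 and −166 bp, and the peak also covered its 3 words in all 9 libraries, 141 to 213 bp from their center. The strongest peak covered the E2F2 words in 5 of 8 libraries and the E2F3 words in 6 of 9. Where it missed the E2F3 words, the strongest peak lay in intron 1. The upstream E2F3 region around the words had a peak in every library.

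E2F1 itself (chr20:33675477-33686385, minus strand) had a peak of 417 to 686 bp in 8 libraries and of 1625 bp in the first shCtrl library, where it ran on into the gene. The fold enrichment of that wide peak was 7.49, at percentile 55.2, and the other shCtrl library had 12, at percentile 83.0. The other 7 libraries had percentiles of 72.6 to 88.2. The first shCtrl library was therefore the lowest for E2F1, and the shCtrl libraries lay on either side of several libraries of the other groups.

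E2F2 (chr1:23506438-23531233, minus strand), an activator closely related to E2F1, had the weakest promoter peak by fold enrichment. Its fold enrichment was 4.19 and 4.41 in shCtrl, 4.19 and 6.09 in shEZH2, 5.08 in the second shE2F1 library, 4.42 in DMSO, 7.03 in GSK126 and 5.52 in shSUZ12. The summit alternated between a site 187 to 209 bp before the TSS in 5 libraries and a site 206 to 219 bp after it, in the 5′ UTR of exon 1, in 3 libraries. An intronic region 2.87 kb into the gene (chr1:23528126-23528836) had a peak in all 9 libraries, with a median percentile of 57.9, higher than that of the promoter.

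E2F5 (chr8:85177154-85217158, plus strand), a repressor that works with the pocket protein p130, had its summit in intron 1, 617 to 768 bp after the TSS, in 8 libraries. In the shSUZ12 library the strongest peak lay at −78 bp instead. Both sites were joined in 1 peak of 1078 bp in the first shEZH2 library and of 1130 bp in the second shE2F1 library. In the second shEZH2 library the only peak within 1 kb was the intronic one (chr8:85177444-85178061), and no peak covered the TSS.

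E2F3 (chr6:20401879-20493714, plus strand) had 2 regions with a peak in every library. The first (chr6:20401198-20401977) covers the start of the canonical transcript, which encodes 465 amino acids, and the second (chr6:20402191-20404114) lies in its intron 1 and covers the start of a shorter coding transcript at +1800 bp, which encodes 334. These are the annotated transcripts of the long and the short E2F3 protein. The first region had percentiles of fold enrichment of 57.7 and 56.7 in shCtrl, 60.5 and 66.0 in shEZH2, 43.2 and 59.7 in shE2F1, 56.5 in DMSO, 58.7 in GSK126 and 54.3 in shSUZ12. The second had 54.2 and 47.4 in shCtrl, 43.4 and 38.1 in shEZH2, 55.1 and 48.7 in shE2F1, 59.5 in DMSO, 51.2 in GSK126 and 58.6 in shSUZ12. The upstream region was the stronger in 6 libraries and the intronic one in 3, the first shE2F1 library, DMSO and shSUZ12. The log2 ratio of the first to the second was 0.30 and 0.43 in shEZH2 and 0.07 and 0.19 in shCtrl, so that these groups did not overlap, and it was −0.17 and 0.20 in shE2F1. This ratio was formed after the values were seen and was not tested.

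The members differed in how far they varied from library to library. E2F6 had percentiles of 92.2 and 86.8 in shCtrl, 87.4 and 85.7 in shEZH2, 91.3 and 93.7 in shE2F1, 90.0 in DMSO, 89.6 in GSK126 and 87.9 in shSUZ12, a narrow band in which each knockdown overlapped shCtrl. TFDP2 was the reverse, with 74.4 and 90.5 in shCtrl, 75.9 and 75.4 in shEZH2, 98.5 and 66.0 in shE2F1, 89.4 in DMSO, 87.4 in GSK126 and 74.7 in shSUZ12. Its shE2F1 libraries were the highest and the lowest of the 9. E2F4 lay between 59.9 and 74.8 in all libraries except the second shEZH2 library, the shallowest, where it had 29.2 in a peak of 288 bp.

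The knockdown of EZH2 was compared with shCtrl to ask whether its loss changes accessibility at the genes of the family. E2F5 had the largest difference: its fold enrichment was 6.94 and 7.45 in shCtrl and 10.3 and 9.12 in shEZH2, and its percentile was 50 and 51.7 in shCtrl and 81.7 and 72.7 in shEZH2. In these libraries the E2F5 summit lay in intron 1, and the second shEZH2 library had no peak over the TSS. E2F3 was also higher in both shEZH2 libraries at its upstream region, at 60.5 and 66.0 against 57.7 and 56.7, whereas its intronic region was lower in both, at 43.4 and 38.1 against 54.2 and 47.4. E2F7, at 55.7 and 59.5 against 75.8 and 73.0, E2F4, at 59.9 and 29.2 against 65.1 and 74.8, and TFDP1, at 76.3 and 63.1 against 87.8 and 77.8, were lower in both. Thus 2 of 10 members were higher and 3 lower with no overlap between the groups, whereas the groups overlapped for the other 5. Of 12234 promoters with a peak in these 4 libraries, 10.6% were higher and 29.7% lower in the same sense. The E2F4 groups overlapped by −log10 p and by percentile of summit tags, at 68.2 and 37.0 in shEZH2 against 62.4 and 70.7. Before ranking, the E2F3 fold enrichment overlapped as well, at 7.68 and 8.36 in shEZH2 against 7.72 and 7.95. With 2 libraries against 2, an exact permutation test cannot give a p below 0.33.

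In the model fitted across all 12026 promoters with limma, no member passed the threshold for shEZH2, 0 of 9 tested, and 0% of all promoters passed it (an adjusted p under 0.05). At an unadjusted p under 0.05 there were 864 of these promoters and 1 member, E2F5. The E2F5 difference in centered log2 fold enrichment was 0.64 (SE 0.128, 95% confidence interval 0.35 to 0.92, limma, Benjamini-Hochberg adjusted p = 0.358). Differences at the other 8 tested genes lay between −0.32 at E2F4 and 0.24 at E2F3, and each interval included 0. E2F2, without a peak in 1 library, was not tested. The recovered E2F5 summit tags were 29 and 34 in shCtrl and 37 and 28 in shEZH2, which overlap before scaling for depth. The percentile of E2F5 summit tags was 40.6 and 43.8 in shCtrl and 54.3 and 48.2 in shEZH2, which do not overlap. The local background relative to the most frequent background was 1.85 and 1.78 in shCtrl and 1.38 and 1.55 in shEZH2. The part of this lower background in the E2F5 difference was not tested.

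The same questions were asked of the knockdown of E2F1, which was compared with the same shCtrl libraries. E2F5, at percentiles of 63.7 and 75.8 against 50 and 51.7, E2F8, at 94.8 and 92.1 against 81.8 and 86.7, and TFDP1, at 93.3 and 92.3 against 87.8 and 77.8, were higher in both shE2F1 libraries. E2F7 was lower in both, at 66.2 and 67.9 against 75.8 and 73.0. These are 3 members higher and 1 lower, where 19.2% and 17% of 12516 promoters were. The E2F5 groups overlapped when the peak was sought within 500 bp of the TSS (43.7 and 75.8 in shE2F1), when the nearest summit was taken and when peaks were ranked by −log10 p. Before ranking, the E2F8 groups overlapped as well. The E2F8 fold enrichment of both shE2F1 libraries, 12.18 and 12.54, lay between the values of the shCtrl libraries. By percentile of fold enrichment the groups overlapped at 5 members, and E2F2 lacked a peak in 1 library.

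At the E2F1 gene, the target of the hairpin, percentiles were 79.2 and 87.7 in shE2F1 and 55.2 and 83.0 in shCtrl, which overlap. The E2F1 log2 difference was 0.30 (SE 0.173, 95% confidence interval −0.08 to 0.69, limma adjusted p = 0.835), and it was 0.03 without the first shCtrl library, the one with the wide peak. For shEZH2 the difference at E2F1 was 0.19 (SE 0.173, limma adjusted p = 0.858), −0.088 without that library and −0.018 without centering, so that its sign depends on both. In neither knockdown was the difference at the E2F1 promoter larger than the spread between the shCtrl libraries.

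No member was called for shE2F1, 0 of 9 tested, by limma at an adjusted p under 0.05, as was no promoter of 12026 (0%), of which 745 had an unadjusted p under 0.05. E2F5 was the only member among these, with a log2 difference of 0.41 (SE 0.128, 95% confidence interval 0.13 to 0.70, limma adjusted p = 0.711). For shE2F1 the E2F5 summit tags were 19 and 38, on either side of the 29 and 34 of shCtrl. Their percentiles, 27.6 and 54.2, also lay on either side of the 40.6 and 43.8 of shCtrl. The E2F5 local background relative to the most frequent one was 1.09 and 1.46 in shE2F1, against 1.85 and 1.78. The part of this lower background in the difference was not tested. E2F7, which was lower in both knockdowns by percentile, held 118 and 124 summit tags in shCtrl, 71 and 58 in shEZH2 and 48 and 74 in shE2F1, and 127 in DMSO, 121 in GSK126 and 145 in shSUZ12. These tags are not scaled for depth. It had log2 differences of −0.23 (SE 0.130, limma adjusted p = 0.740) in shEZH2 and −0.14 (SE 0.130, limma adjusted p = 0.914) in shE2F1. By the percentile of summit tags E2F7 was lower as well, at 82.0 and 82.2 in shEZH2 and 78.9 and 81.7 in shE2F1 against 92.1 and 89.4 in shCtrl.

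**Figure D3:**
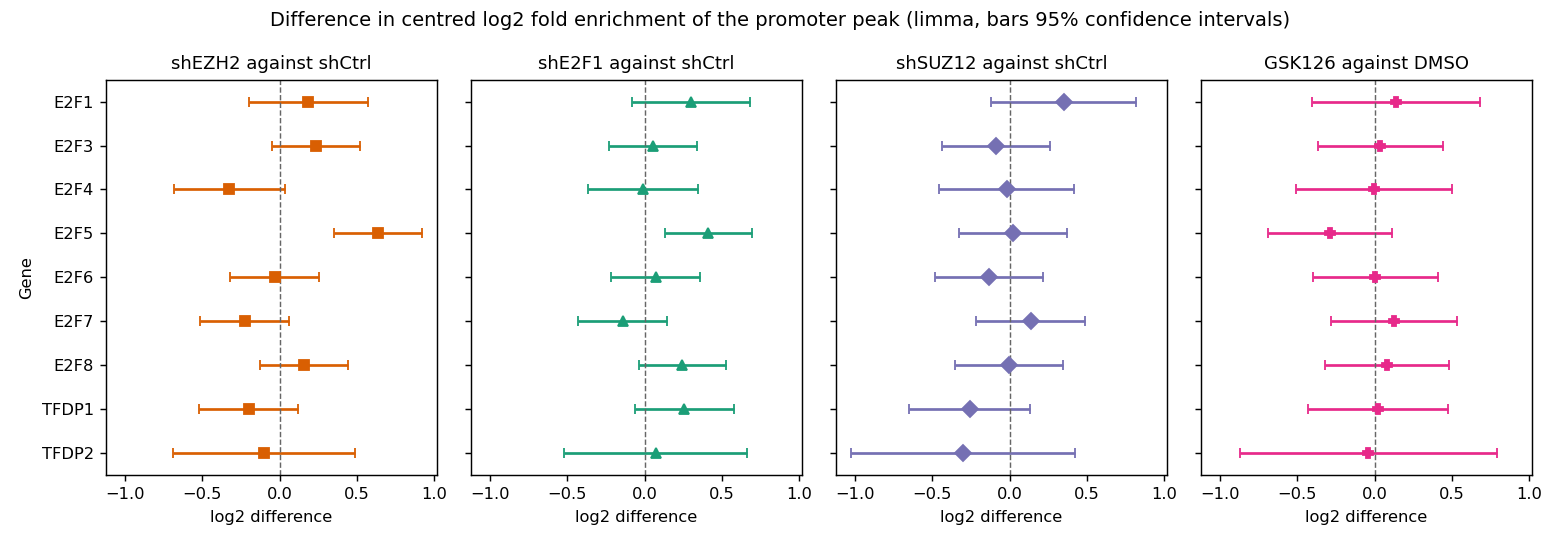
Difference in centered log2 fold enrichment of the promoter peak for the 9 genes with a peak in all libraries, in 4 comparisons, as estimated by limma with 95% confidence intervals (bars). The E2F5 intervals in shEZH2 (0.35 to 0.92) and shE2F1 (0.13 to 0.70) lie above 0 and every other interval includes 0, but no adjusted p passed 0.05.

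The knockdowns were then set against each other. By percentile, TFDP1, a partner of the typical E2F proteins, was lower in both shEZH2 libraries and higher in both shE2F1 libraries than in either shCtrl library. Its fold enrichment was 9.49 and 8.08 in shEZH2, 11.7 and 12.6 in shE2F1 and 12.3 and 11 in shCtrl, so that before ranking or centering the shE2F1 and shCtrl libraries overlapped. The TFDP1 summit tags were 59 and 31 in shEZH2, 62 and 84 in shE2F1 and 87 and 74 in shCtrl. Its direct log2 difference, shEZH2 minus shE2F1, was −0.46 (SE 0.145, 95% confidence interval −0.78 to −0.14, limma adjusted p = 0.532). None of the 9 tested members and 0% of promoters passed in this comparison by limma, with 970 promoters at an unadjusted p under 0.05. TFDP1 was the only member among them.

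The single shSUZ12 library was compared with shCtrl, and GSK126 with DMSO, each resting on the assumption that a lone library varies like the replicated groups. For shSUZ12, limma called 0 of 9 members and 0% of promoters (461 at an unadjusted p under 0.05), and log2 differences ran from −0.30 at TFDP2 to 0.35 at E2F1. For GSK126 it called 0 of 9 members and 0% of promoters (305 at an unadjusted p under 0.05), with differences from −0.29 at E2F5 to 0.14 at E2F1. E2F5 fold enrichment was 7.44 in GSK126 and 9.03 in DMSO, the direction opposite to its difference in shEZH2. No difference between these perturbations was tested at E2F5.

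Beyond the promoters, 121 merged regions lay in or within 50 kb of the 10 genes. Of these, 12 were at the promoters, 27 in the gene bodies, 44 upstream and 38 downstream, and 21 covered the promoter of another protein-coding gene. A peak in all 9 libraries was found for 44.6% of them and a peak in a single library for 18.2%, against 34.2% and 24.3% of the 118719 regions of the genome. E2F4, in the gene-rich part of chromosome 16, had the densest surroundings, with 18.7 regions per 100 kb, 9 of its 20 regions at promoters of other genes. E2F5 had the sparsest, with 3.57 regions per 100 kb and none in its gene body outside the promoter.

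**Figure D4:**
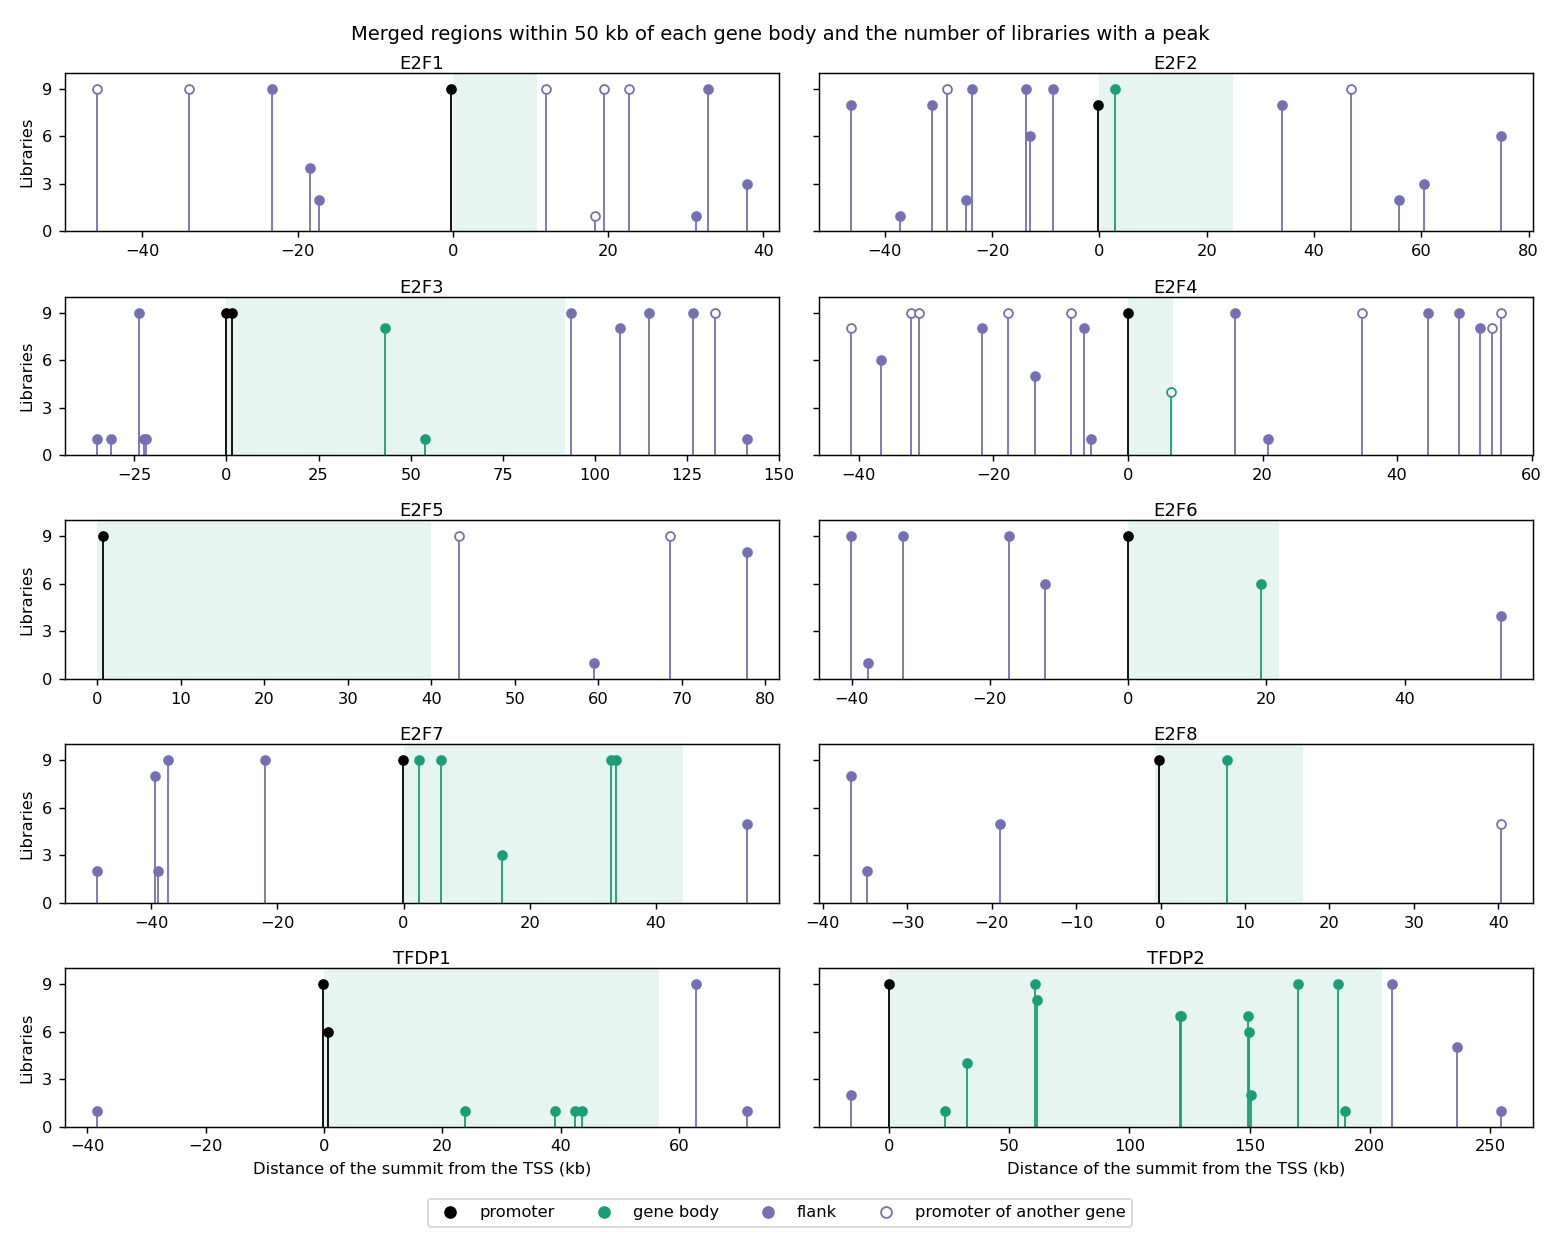
Merged regions in and within 50 kb of each gene, at the distance of the summit from the TSS along the direction of transcription (kb), with the number of the 9 libraries holding a peak (height). Shading marks the gene body, and open circles are regions at the promoter of another gene. TFDP2 has 12 regions in its gene body outside the promoter and E2F5 none.

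Intragenic regions differed among members. TFDP2, the longest gene of the family (chr3:141944428-142149544), had 12 outside its promoter, and 3 of these were present in all libraries. Regions at annotated internal starts of TFDP2 were found 121 kb into the gene (chr3:142028329-142028770), where 5 protein-coding transcripts start, and 149 kb into it (chr3:142000157-142000571), at the start of another coding transcript. Each had a peak in 7 libraries, with median percentiles of 38.8 and 29.4, and both lacked one in the first shE2F1 library. One more region at an internal start (chr3:142126246-142126499), had a peak only in the shSUZ12 library. E2F7 (chr12:77021248-77065569) had 4 intronic regions with a peak in all libraries, 2.48 to 33.7 kb from the TSS. Those at 33.0 and 33.7 kb had median percentiles of 60.4 and 63.2. E2F8 had 1 such region, 7.84 kb into the gene, with a median percentile of 84.3, close to that of its promoter.

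At 3 genes, E2F6, E2F8 and TFDP1, the promoter had the highest median percentile of all regions in the window. For E2F1 it was the promoter of PXMP4, 34.0 kb upstream, with a median of 95.9. For E2F5 it was the promoter of RBIS, 43.3 kb downstream of the TSS, at 95, for E2F4 that of TMEM208 at 88.1 and for E2F2 that of ASAP3 at 75.8. The highest regions of E2F3 (93.2, at 115 kb downstream of the TSS), TFDP2 (84.6, at 209 kb downstream) and E2F7 (72.0, at 37.4 kb upstream) lay at no protein-coding promoter.

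Regions gained or lost were those with a peak in both libraries of one group and in neither of the other. In shEZH2, 2 of 108 regions near the members were gained, where 0.889% of all 99181 regions were, and 5 were lost, where 7.2% of all were. The first shEZH2 library and the second both had a peak at each gained region. Both lay upstream of E2F7, 38.9 and 48.6 kb from its TSS (chr12:77104387-77104641 and chr12:77114034-77114256), and no other library of the 9 had a peak there. Their percentiles were 17.5 and 29 at the first and 33.6 and 28.1 at the second. The 5 lost regions lay near E2F2, E2F4, E2F6, E2F8 and TFDP2, each outside the gene body. The lowest by percentile of fold enrichment, upstream of E2F4 (chr16:67178229-67178671), had percentiles of 4.78 and 3.10 in shCtrl, and that downstream of TFDP2 (chr3:141913272-141913488) had 29.8 and 25.9. The region near E2F6 (chr2:11412086-11412368, 53.9 kb downstream of the TSS) had percentiles of 64.4 and 30.3 in shCtrl and peaks in DMSO and in the second shE2F1 library. The region near E2F8 (chr11:19200498-19200879) had percentiles of 35.1 and 60.4 in shCtrl and peaks also in GSK126, shSUZ12 and the second shE2F1 library.

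In shE2F1, 0 of 111 regions were gained, where 2.86% of all 107395 were, and 1 was lost, where 3.81% of all were. The lost region lay 60.6 kb downstream of the E2F2 TSS (chr1:23470234-23470992), nearest to the TSS of ASAP3, and was also lost in shEZH2, in a comparison that shares the shCtrl libraries. It had percentiles of 36.3 and 22.5 in shCtrl and a peak in DMSO. With 1 library left out the rule is met more easily. Near the members 4 of 106 regions were lost in shE2F1 without its first library and 18 of 109 without its second. Of all regions, 5.33% and 12.9% were lost in these settings. Without the first shCtrl library 5 of 109 were lost, and without the second 6 of 108, where 11.8% and 10.5% of all regions were.

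Other genes of the pathway were counted as lists. Of 36 E2F target genes, among them cyclins, MCM helicase subunits and EZH2, 35 were tested, and limma called 0 in each of the 5 comparisons. Their median log2 difference was 0.02 in shEZH2 and 0.07 in shE2F1, against 0.02 and 0.01 over all promoters. Of 9 genes for pocket proteins and subunits of the DREAM complex, which represses cell cycle genes in quiescence, 8 were tested and 0 were called by limma, with medians of 0.01 and −0.02. RBL1 and MYBL2 stand in both lists.

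The promoters whose centered log2 fold enrichment followed that of E2F1 most closely over the 9 libraries were those of SRSF9 (Pearson r = 0.916), TBC1D20 (0.906), CDC42 (0.899), ZNF567 (0.896) and GFOD1 (0.887), ranked among 12025 promoters. The 9 points share library and depth, and the first shCtrl library is the lowest of them at E2F1, so the ranking is given as a description.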

How the data were processed

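ATAC-seq of MDA-MB-231 cells gave 9 deposited peak lists, 1 per library. The authors aligned reads to GRCh38 with Bowtie2, corrected the read ends for the Tn5 offset and called the peaks of each library without pooling replicates; the peak caller for ATAC-seq is not given in the sources used here, which name MACS2 for the ChIP-seq of the study. The deposited columns used were the score (10 times −log10 q, rounded down), the fold enrichment (a ratio of the summit over its local background), −log10 p and −log10 q values and the summit position. Peaks absent from a list may lie under its threshold.

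Per promoter, the strongest peak by fold enrichment overlapping 1 kb on either side of the GENCODE 44 canonical TSS was taken. The summit tag count, a whole number for 100% of peaks, was solved from fold enrichment and −log10 p. This assumes a Poisson p-value with a pseudocount of 1 tag. Log2 fold enrichment was centered on each library's median over promoters and fitted over all 9 libraries with limma 3.58.1 in R 4.3.3, two-sided, with Benjamini-Hochberg adjustment over the 12026 promoters with a peak in every library. P-values measure only the spread between these libraries. Peaks of different libraries sharing at least 1 bp formed a region. Python 3.11.15, numpy 2.4.6, pandas 2.3.3, scipy 1.17.1 and matplotlib 3.10.9 were used, and the fit was tested on simulated data.

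The 10 genes and the lists were chosen with earlier results of these data known. All members are named, with regions that were gained, lost, at an alternative start or the strongest per gene, and the 5 promoters most like E2F1. Alternatives changed the normalization, measure, peak threshold, promoter width, region definition, samples fitted and replicates. Ranking and testing by summit tags, the non-overlap counts and the E2F3 ratio were added after the data had been seen. Part of the luminal marker list is not reported here.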

Additional observations from a re-analysis of the deposited data

Results flagged for a closer look

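TFDP1 was singled out because its shEZH2 and shE2F1 libraries lay on opposite sides of the shCtrl libraries by percentile of fold enrichment. Both shEZH2 libraries (76.3 and 63.1) lay below both shCtrl libraries (87.8 and 77.8), and both shE2F1 libraries (93.3 and 92.3) lay above them. The shEZH2 and shCtrl libraries overlapped by percentile of summit tags and with the same number of peaks per list. The direct log2 difference, shEZH2 minus shE2F1, was −0.46 (SE 0.145, limma adjusted p = 0.532), so that it did not pass the correction over all promoters. Over the alternatives it lay between −0.84 and −0.36, with limma adjusted p from 0.429 to 0.743. Depth was lowest in the second shEZH2 library, which also had the lowest TFDP1 percentile, and its part in the difference was not tested.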

How the results depend on the processing

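No member was called by limma under any of 76 alternative values, and the lowest adjusted p of a member in any setting was 0.2. The E2F5 difference kept its sign in all 32 alternative values, at 0.43 to 1.09 in shEZH2 (adjusted p 0.243 to 0.998) and 0.23 to 0.66 in shE2F1 (adjusted p 0.53 to 1). Of 288 alternative member differences, 22 changed sign. That at E2F1 in shEZH2 became −0.018 without centering, and ranged from −0.088 (without the first shCtrl library) to 0.46 (without the second) with 1 replicate left out. Without centering the median over all promoters was −0.18 in shEZH2, −0.17 in shE2F1 and 0.11 in shSUZ12.

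Over all promoters, 0 calls became 5 (shEZH2) and 1 (GSK126) without centering. With the peak nearest to the TSS they became 7 (shEZH2), 6 (shE2F1), 7 (shSUZ12) and 6 (GSK126), and with 500 bp on each side 1 (shE2F1) and 1 (GSK126). The direct comparison of shEZH2 with shE2F1 became 3 and 2 under these settings. Leaving out 1 replicate gave 0 to 1 for GSK126. A fit of GSK126 and DMSO alone has no spread and was not run.

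Regions gained near members in shEZH2 numbered 4 of 89 with the same number of peaks per list, where 2.68% of all regions were gained. With 1 replicate left out they numbered 2 to 5, where 1.88% to 6.97% of all were. Those lost numbered 2 of 89 with the same number of peaks and 2 of 80 within 50 kb of the TSS, where 3.88% and 7.2% of all were. With 1 replicate left out they numbered 9 to 16, where 9.5% to 19.0% of all were. In shE2F1, regions gained numbered 3 of 88 with the same number of peaks and 1 of 116 with summit windows, where 3.61% and 3.11% of all were. With 1 replicate left out they numbered 1 to 5, where 4.66% to 13.1% of all were. Those lost numbered 0 of 88 with the same number of peaks, 2 of 106 at a −log10 q of at least 5 and 0 of 79 within 50 kb of the TSS. Of all regions, 3.74%, 3.98% and 3.81% were lost in these settings. With 1 replicate left out they numbered 4 to 18, where 5.33% to 12.9% of all were.

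The median member percentile of 73.5 became 82.9 when ranked by −log10 p, and 18 of 50 alternative member medians moved beyond the replicate spread. Members higher in both shEZH2 libraries numbered 4 with the same number of peaks and 1 by summit tags. Members lower in both shE2F1 libraries numbered 2 by −log10 p and 2 by summit tags. The shares over all promoters were not computed under these settings, so these counts have no background to be read against. The cause of these changes was not tested.

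The replicate differences of the groups correlated at 0.0584, 0.0584 and 0.00753. The labels do not say whether libraries with the same replicate number were prepared together, and these correlations cannot decide it. With the replicate number as a block, limma called 0 promoters and 0 members in shEZH2 and in shE2F1.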

Other observations

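Local background at the summit differed among the members more than it did among libraries. Relative to the most frequent background of the library, it was 10.5 to 22.7 at E2F3, 5.54 to 7.5 at E2F1 and 4.47 to 8.54 at E2F8, but 1.09 to 1.86 at E2F5. CCAAT boxes stood in the RefSeq promoters of E2F1 (3), E2F3 (4), E2F7 (4) and TFDP2 (2), and 34.6% of all promoters held at least 1.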
